A study of Mus musculus with 3 samples.

Results

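The genes described here are the nuclear genes of oxidative phosphorylation, chosen by symbol: every gene whose symbol starts with Nduf, Uqcr, Atp5, Cox4, Cox5, Cox6, Cox7 or Cox8, and the genes Sdha, Sdhb, Sdhc, Sdhd and Cyc1. In the deposited matrices 94 of 31053 genes met this rule. They comprised 36 genes of complex I, 4 of complex II, 9 of complex III, 19 of complex IV, 16 of complex V and 10 assembly or coupling factors. Atp5o was listed under 2 gene identifiers, and the counts of both were kept apart. The rule itself uses symbols and no measured value.

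The series profiled skin of C57BL/6 mice aged 7 weeks in a study of hair growth, with 1 droplet single-cell library per agent: control, Shi-Bi-Man and metformin. Metformin is a biguanide drug whose known actions include inhibition of complex I. Control and metformin were compared, and the expression of the Shi-Bi-Man library was not analysed here. The number of animals behind a library, the dose and the route were not stated in what was used here, so a difference between libraries carries no estimate of the variation between mice. After filtering, 9681 control cells had a median of 3557 UMIs (unique molecular identifiers, each counting 1 captured transcript molecule) and 8817 metformin cells had a median of 5562. Of the barcodes, 41 occurred in both the control and the metformin library. Cells were grouped without the genes described here into 34 clusters, which markers assigned to classes such as fibroblast-like. For 15 classes with at least 50 cells in each library, levels were compared; 3 clusters stayed unnamed.

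Oxidative phosphorylation makes most of the ATP of resting cells. Complex I (NADH dehydrogenase) and complex II (succinate dehydrogenase) feed electrons to ubiquinone, complex III (cytochrome bc1) passes them to cytochrome c, complex IV (cytochrome c oxidase) reduces oxygen, and complex V (ATP synthase) uses the resulting proton gradient. Except for complex II, each complex joins nuclear subunits with subunits encoded in mitochondrial DNA, so both genomes contribute to 1 enzyme. The epidermis is known for a high rate of glycolysis, whereas sebocytes make lipid and smooth muscle contracts.

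Promoter letters known from respiratory genes were looked up in RefSeq promoter windows on GRCm38.p6, 250 bases before to 50 after the start, which were matched by symbol for 74 of the 94 genes. The palindromic NRF1 consensus was present for 19 of these 74 genes (25.7%), against 5.19% of all 27025 genes with a window. The ETS core CCGGAAG was present on either strand for 18 genes (24.3%), against 9.93% of all, and the YY1 consensus for 5 genes (6.76%), against 0.755% of all. At least 1 of the 3 motifs was present for 36 genes (48.6%), against 14.5% of all. Where occurrences of different motifs overlapped, each was counted. The windows of Cox6a1 and Atp5h show both kinds of site, and those of Cox6b1 and Cox6b2 set a ubiquitous subunit beside its class-dependent isoform. Capitals mark the motifs on either strand, and each stretch stops 30 bases past the more upstream of the RefSeq and GENCODE starts. The windows lie at chr5:115348952-115349208 (Cox6a1), chr11:115419933-115420169 (Atp5h), chr7:30626122-30626364 (Cox6b1) and chr7:4753065-4753344 (Cox6b2), all on the minus strand.
Cox6a1: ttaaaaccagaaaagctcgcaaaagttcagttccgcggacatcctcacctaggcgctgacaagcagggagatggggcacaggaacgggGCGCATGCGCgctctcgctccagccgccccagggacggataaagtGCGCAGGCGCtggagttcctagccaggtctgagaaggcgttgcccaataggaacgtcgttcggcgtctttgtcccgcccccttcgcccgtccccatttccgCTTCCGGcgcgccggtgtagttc
Atp5h: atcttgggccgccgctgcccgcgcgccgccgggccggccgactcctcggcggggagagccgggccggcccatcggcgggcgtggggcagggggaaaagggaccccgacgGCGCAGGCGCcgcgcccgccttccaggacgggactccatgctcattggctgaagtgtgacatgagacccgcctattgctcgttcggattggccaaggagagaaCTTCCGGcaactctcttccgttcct
Cox6b1: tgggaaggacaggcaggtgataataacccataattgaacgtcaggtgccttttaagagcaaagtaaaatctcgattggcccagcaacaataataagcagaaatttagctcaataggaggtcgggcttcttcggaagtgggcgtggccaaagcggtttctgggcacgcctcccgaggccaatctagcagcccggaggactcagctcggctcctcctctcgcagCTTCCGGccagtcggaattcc
Cox6b2: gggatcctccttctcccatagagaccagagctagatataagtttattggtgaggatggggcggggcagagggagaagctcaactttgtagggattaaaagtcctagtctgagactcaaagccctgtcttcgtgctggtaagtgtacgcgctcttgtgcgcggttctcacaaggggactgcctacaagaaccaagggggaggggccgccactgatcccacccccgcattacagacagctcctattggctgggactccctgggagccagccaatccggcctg
In Cox6a1 the NRF1 motif began 162 and 117 bases and the ETS core 16 bases before the RefSeq start. In Cox6b1 the ETS core began 28 bases before the RefSeq start. The GENCODE starts, at chr5:115348981 for Cox6a1 and chr7:30626151 for Cox6b1, lie upstream of these ETS cores, which fall inside the GENCODE genes. The Cox6b2 window held none of the 3 motifs in these letters, which says nothing about the factors that act there. A match is a description of sequence and was not linked to binding.

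Of the 15 classes, sebaceous gland-like cells, which make the lipid of the skin surface, had the highest level of these genes in both libraries. Smooth muscle or pericyte-like cells, a class that joined clusters of unlike level, came next. A level is the share of all UMI counts of a class in a library, with an exact binomial interval. Intervals in this report cover 95% of the counting error only, not the variation between cells, mice or library preparations. In sebaceous gland-like cells the 94 genes took 5.12% of the counts in control (5.06 to 5.19, 63 cells) and 5.08% in metformin (5.01 to 5.15, 53 cells). In smooth muscle or pericyte-like cells they took 4.36% (4.31 to 4.41, 158 cells) and 4.38% (4.33 to 4.43, 167 cells). Upper hair follicle-like cells followed with 3.51% and 3.50%. T cell-like cells had the lowest level of the 15 classes in control, 2.02% (2.0 to 2.04, 628 cells). In metformin their level of 2.27% (2.25 to 2.29, 681 cells) was not resolved from the 2.29% of Schwann cell-like cells. From the highest to the lowest class the level differed 2.53-fold in control and 2.24-fold in metformin.

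Between these ends, the keratinocyte classes lay above most stromal and immune classes. Basal epidermis-like cells had 2.93% in control and 2.89% in metformin, suprabasal epidermis-like cells 2.77% and 2.80%, and hair follicle stem or outer root sheath-like cells 2.62% and 3.21%. Dendritic cell-like cells had 2.52% and 2.68%, macrophage-like cells 2.41% and 2.73%, lymphatic endothelium-like cells 2.41% and 2.57%, dermal papilla-like cells 2.38% and 2.86%, and Schwann cell-like cells 2.36% and 2.29%. Vascular endothelium-like cells had 2.21% and 2.49%, Langerhans cell-like cells 2.15% and 2.36%, and fibroblast-like cells 2.11% and 2.51%. In control, the intervals of neighbours in this order overlapped between macrophage-, lymphatic endothelium-, dermal papilla- and Schwann cell-like cells, and between vascular endothelium-, Langerhans cell- and fibroblast-like cells, so the order within these groups is not resolved. In metformin the same held for basal epidermis- and dermal papilla-like cells, for suprabasal epidermis-, macrophage- and dendritic cell-like cells, for lymphatic endothelium-, fibroblast- and vascular endothelium-like cells, and for Langerhans cell-, Schwann cell- and T cell-like cells. With every cell thinned to 1500 UMIs, the median level was 5.13% and 4.63% in sebaceous gland-like cells, 1.87% and 2.07% in T cell-like cells and 2.07% and 2.40% in fibroblast-like cells (control and metformin). Cells with markers of the inner root sheath, hair shaft or matrix, nearly all from the metformin library (899 cells, 18 in control), had 3.80% in metformin (3.79 to 3.82).

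**Figure D1:**
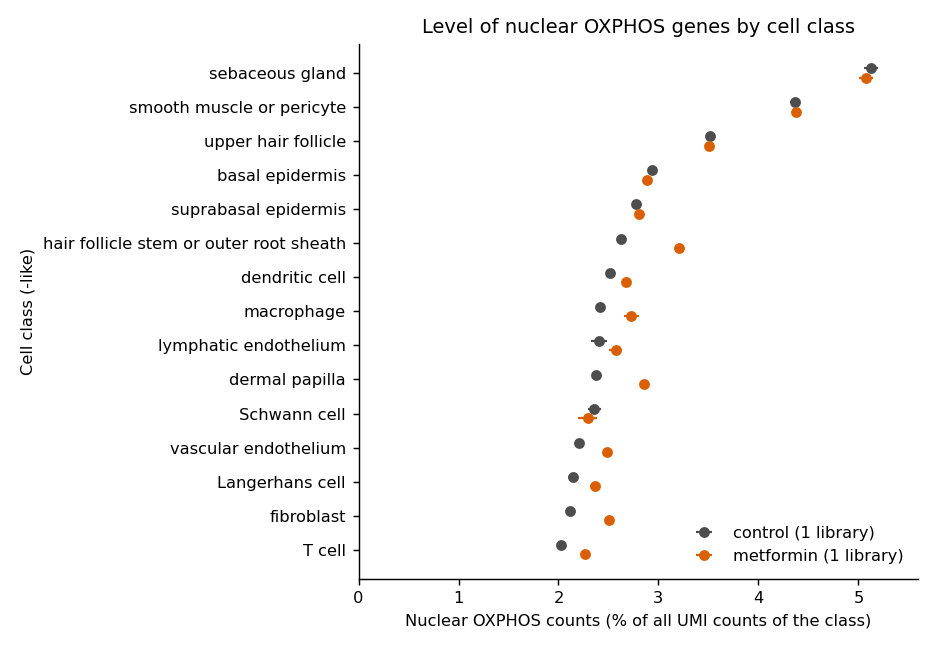
Level of the 94 nuclear oxidative phosphorylation genes as a percent of all UMI counts (x axis) in 15 cell classes (y axis), with 1 point per library and bars for the 95% binomial counting interval, often narrower than the point. Sebaceous gland-like cells lie at 5.12% and 5.08%, T cell-like cells at 2.02% and 2.27%, and the metformin points of fibroblast-, dermal papilla- and hair follicle stem-like cells lie to the right of their control points.

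The smooth muscle or pericyte class joined clusters of unlike level. A cluster led by Des, Actg2 and Synpo2, which encode contractile and cytoskeletal proteins of smooth muscle, had 5.68% in control (33 cells) and 5.46% in metformin (35 cells). Both lay above the 5.12% and 5.08% of sebaceous gland-like cells, so the order of classes depends on how clusters were joined. The cluster led by Rgs5, a pericyte and vascular smooth muscle gene, had 3.67% (125 cells) and 3.90% (132 cells). Within the suprabasal class the cluster led by Lor, Crct1 and Flg, genes of the granular layer, had the lowest control level of its 3 clusters, 2.19%, and the highest of the 3 reached 3.04%.

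Complex I, which oxidises NADH, took 1.47% of the counts in sebaceous gland-like cells of control and 1.4% in metformin, and 0.564% and 0.656% in T cell-like cells. Levels of single genes are given as CPM, the count per 1000000 counts of the class. The labels state 3' sequencing, so a UMI stands for 1 transcript end and CPM was not divided by transcript length. Of the catalytic subunits, Ndufs7 (an iron-sulfur subunit near the quinone site) was at 517 CPM in sebaceous gland-like cells of control and 397 CPM in metformin. Fibroblast-like cells had 148 and 171 CPM of Ndufs7. Ndufv2, a subunit of the NADH-binding module, stood out in Schwann cell-like cells with 430 CPM in control and 359 CPM in metformin, above its 320 and 295 CPM in sebaceous gland-like cells. Ndufs1, the largest iron-sulfur subunit, was among the less counted subunits in every class, between 13.0 CPM (lymphatic endothelium-like, 2 UMIs) and 54.6 CPM (sebaceous gland-like, 23 UMIs) in control over the 15 classes. Ndufab1, the mitochondrial acyl carrier protein, which also serves fatty acid synthesis, had the widest control range over classes in complex I, from 726 CPM in sebaceous gland-like cells to 108 CPM in Langerhans cell-like cells of control. In metformin the same pair of classes was at 678 and 117 CPM.

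Complex II, the succinate dehydrogenase of the TCA cycle, was the least counted complex: it took 0.0553% of counts in sebaceous gland-like cells of control and 0.0197% in suprabasal epidermis-like cells. Sdha, its flavoprotein, was at 83.1 and 79.3 CPM (control and metformin) in sebaceous gland-like cells and at 38.3 and 32.5 CPM in suprabasal epidermis-like cells. Sdhb, its iron-sulfur protein, was at 263 and 227 CPM in sebaceous gland-like cells and 84.2 and 103 CPM in suprabasal epidermis-like cells. Sdhc, a membrane anchor, was highest in smooth muscle or pericyte-like cells, at 127 and 135 CPM, and its control minimum was 26.3 CPM in T cell-like cells. Sdhd, the other anchor, was at 116 and 90.3 CPM in sebaceous gland-like cells and 30.3 and 40.7 CPM in suprabasal epidermis-like cells.

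Complex III took 0.683% of counts in sebaceous gland-like cells of control and 0.231% in Schwann cell-like cells. Uqcr11, a small accessory subunit, had its widest range over classes in control, from 1146 CPM in sebaceous gland-like cells to 134 CPM in dermal papilla-like cells. In metformin the same classes were at 1291 and 256 CPM. Cyc1, cytochrome c1, was at 358 and 325 CPM in sebaceous gland-like cells. It was at 227 and 227 CPM in smooth muscle or pericyte-like cells, and at 62.1 and 77.7 CPM in fibroblast-like cells. Uqcrfs1, the Rieske iron-sulfur protein, was at 316 and 271 CPM in sebaceous gland-like cells and 67.4 and 81.7 CPM in fibroblast-like cells.

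Complex IV took 1.42% of the counts in sebaceous gland-like cells of both libraries and 0.556% and 0.628% in T cell-like cells. Cox5b, a zinc-binding subunit, was at 1503 and 1414 CPM in sebaceous gland-like cells, 747 and 787 CPM in basal epidermis-like cells and 402 and 530 CPM in fibroblast-like cells. Cox5a was at 845 and 845 CPM, 521 and 499 CPM, and 222 and 255 CPM in the same classes. Cox4i1, a subunit that binds regulators of the enzyme, had another order of classes: dermal papilla-like cells were at 1644 and 1370 CPM (control and metformin), beside the 1336 and 1417 CPM of sebaceous gland-like cells.

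Complex V took 1.43% of the counts in sebaceous gland-like cells of control and 1.47% in metformin, against 0.585% and 0.529% in Schwann cell-like cells. The catalytic beta subunit gene Atp5b was at 1011 and 938 CPM in sebaceous gland-like cells, 662 and 650 CPM in smooth muscle or pericyte-like cells and 258 and 300 CPM in fibroblast-like cells. Atp5a1, the alpha subunit, was at 674 and 566 CPM, 434 and 480 CPM, and 249 and 282 CPM in these classes. The c ring is encoded by Atp5g1, Atp5g2 and Atp5g3, which yield the same mature protein. Atp5g2 had the largest share of the 3 genes' counts in each of the 15 classes but 1, with 47.6% in basal epidermis-like cells of control and 57.3% in vascular endothelium-like cells. In sebaceous gland-like cells Atp5g1 was first in both libraries, with 40.0% and 39.4%, and Atp5g2 had 36.0% and 37.1%. Atp5g3 ranged from 139 CPM in Langerhans cell-like cells to 764 CPM in sebaceous gland-like cells of control, and from 166 to 774 CPM in the same classes of metformin.

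Levels of the complexes went together over classes to differing degrees. Across the 15 class values, which share a library and are no independent replicates, Pearson's r between pairs of complexes ranged from 0.736 (complexes II and V) to 0.970 (III and V) in control and from 0.535 to 0.963 for the same pairs in metformin. The Spearman coefficient ranged in control from 0.321 (II and V) to 0.900 (III and V), and in metformin from 0.354 (II and III) to 0.957 (IV and V). The summed level had an r of 0.442 with the median UMIs of the class in control and 0.415 in metformin. Among 83 members whose counts over the compared classes reached 500 in each library, 56 had their highest control level in sebaceous gland-like cells and 17 in smooth muscle or pericyte-like cells, and in metformin 53 and 17. The members' highest level was a median of 3.91-fold above their lowest in control and 3.39-fold in metformin.

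Ndufa4l2 and Cox6b2 stood apart from the other members by their range over classes. Ndufa4l2 (chr10:127514967-127517154, plus strand, GRCm38) encodes a homologue of the complex IV subunit Ndufa4 and is known as a gene induced by low oxygen. In basal epidermis-like cells its level was 1203 CPM in control and 917 CPM in metformin, and at 1166 and 713 CPM in suprabasal epidermis-like cells. Other keratinocytes lacked this level: upper hair follicle-like cells had 33.3 and 23.0 CPM, hair follicle stem or outer root sheath-like cells 11.3 and 5.46 CPM, and sebaceous gland-like cells 7.12 and 5.47 CPM. Ndufa4 (chr6:11900292-11907497, minus strand) was at 458 and 418 CPM in basal epidermis-like cells, so that Ndufa4l2 made up 72.4% of the pair's counts in control and 68.7% in metformin there, against 0.599% and 0.482% in sebaceous gland-like cells. Outside the epidermis, fibroblast-like cells had 281 and 308 CPM of Ndufa4l2, and the Rgs5-led pericyte cluster 740 and 747 CPM, whereas the Des-led muscle cluster had 8.75 and 18.4 CPM. Within fibroblast-like cells, the cluster led by Stc1 and Igfbp2 had 576 and 583 CPM and the cluster led by Plac8 and Sfrp4 had 47.9 and 24.8 CPM.

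Cox4i2 (chr2:152754173-152765037, plus strand), the alternative Cox4 subunit known from lung and pericytes, was concentrated in the Rgs5-led cluster, where it reached 432 CPM (control) and 358 CPM (metformin). There it made up 34.6% and 30.1% of the Cox4i1 and Cox4i2 counts. The whole smooth muscle or pericyte class had 295 and 254 CPM, vascular endothelium-like cells 53.1 and 41.7 CPM, dermal papilla-like cells 41.7 and 113 CPM, and basal epidermis-like cells 0.181 and 0.239 CPM. In the dermal papilla cluster led by Hhip, Rspo3 and Wif1, Cox4i2 went from 88.2 CPM (control) to 114 CPM (metformin).

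Cox6b2 (chr7:4751792-4753094, minus strand), an isoform of Cox6b1 known from testis, was highest in dermal papilla-like cells, with 169 CPM (control) and 174 CPM (metformin), where it made up 33.2% and 24.6% of the Cox6b1 and Cox6b2 counts. Dendritic cell-like cells had 87.9 and 94.9 CPM. Suprabasal epidermis-like cells had 4 UMIs in each library, 0.432 and 0.585 CPM. Its sequence window is printed above. The muscle isoforms Cox6a2, Cox7a1 and Cox8b, and Cox7b2 and Cox8c, were at or near 0 in nearly all classes. The highest of them in control was Cox7a1 in smooth muscle or pericyte-like cells, at 22.7 CPM (15 UMIs), while Cox6a2 had 13 UMIs in dendritic cell-like cells of control and 9 in metformin.

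**Figure D2:**
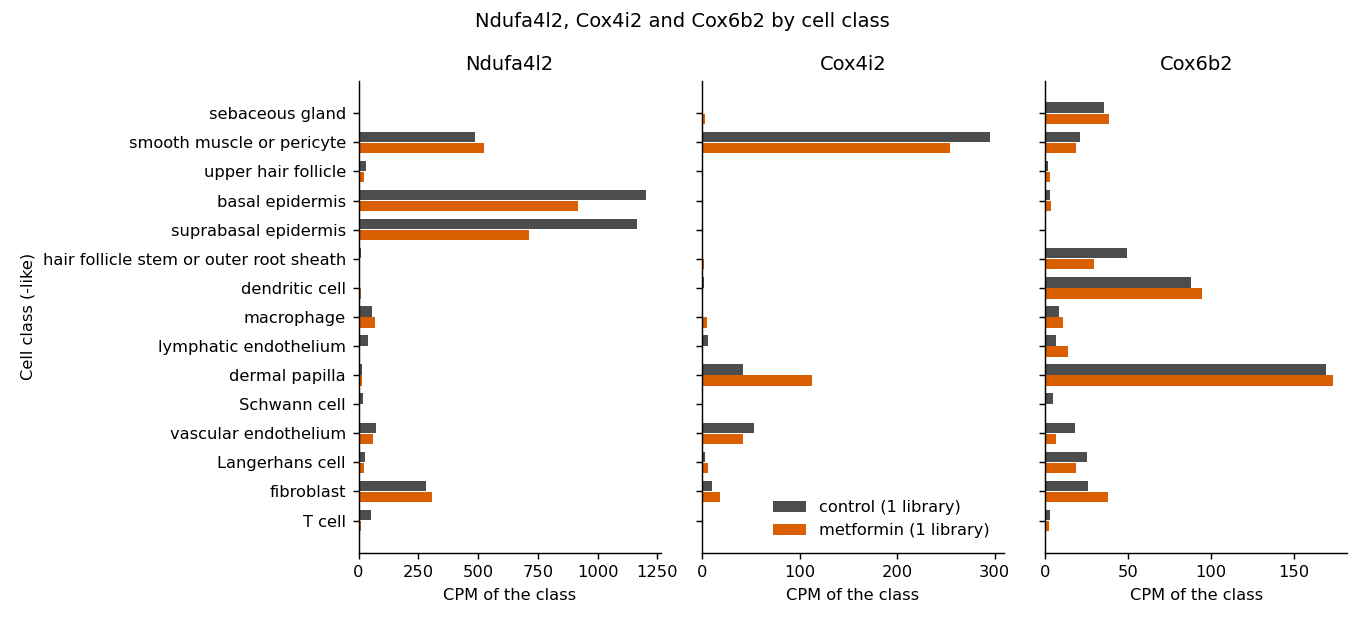
CPM (counts per 1000000 counts of the class; x axes, linear, each from 0) of Ndufa4l2, Cox4i2 and Cox6b2 in 15 cell classes (y axis), with 1 bar per library. Ndufa4l2 is highest in basal (1203 and 917 CPM) and suprabasal epidermis-like cells, Cox4i2 in smooth muscle or pericyte-like cells (295 and 254 CPM) and Cox6b2 in dermal papilla-like cells (169 and 174 CPM).

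The comparison of metformin with control asked whether the level of each complex differed between the libraries within a class. In fibroblast-like cells the level was higher in metformin for all 5 complexes, while in basal and suprabasal epidermis-, sebaceous gland-, smooth muscle or pericyte- and upper hair follicle-like cells the summed level differed by under 2%. Within some of these classes the clusters went apart. The Rgs5-led cluster had a ratio of 1.06 (1.04 to 1.09), while the Des-led cluster was at 5.68% in control and 5.46% in metformin. The Lor-led suprabasal cluster also had 1.06 (1.05 to 1.08), and the other suprabasal clusters 0.979 (0.971 to 0.988) and 0.953 (0.944 to 0.963). With 1 library per agent there was no replicate check, and ratios of metformin over control are given with exact conditional intervals. The ratio of the summed level ranged from 0.972 (0.924 to 1.02) in Schwann cell-like cells to 1.22 (1.21 to 1.24) in hair follicle stem or outer root sheath-like cells. Its counting interval lay above 1 in 10 of 15 classes, below 1 in 1 (basal epidermis-like, 0.984, 0.980 to 0.989) and included 1 in 4. Over all cells of a library, the genes took 2.66% of counts in control and 2.99% in metformin, a comparison that also holds the differing class numbers.

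In fibroblast-like cells (4247 in control, 1824 in metformin) the ratio was 1.22 for complex I (1.21 to 1.23), 1.19 for complex II (1.13 to 1.26), 1.16 for complex III, 1.18 for complex IV and 1.18 for complex V. A member was counted as higher or lower when its ratio passed 1.2-fold and its counts over both libraries reached 100. Of 88 members with enough counts, 44 were higher (50%) and 1 was lower, against 23.5% higher and 21.8% lower among all 9763 genes of the class. The members' median log2 ratio was 0.26, that of all genes 0.02. By complex, 22 of 36 genes of complex I, 1 of 4 of complex II, 4 of 9 of complex III, 7 of 14 of complex IV and 7 of 15 of complex V were higher. The ratio was above 1 for all 78 of these subunits, beside 52.6% of all genes. Cox4i2 had the highest ratio, 1.85 (1.44 to 2.39), from 9.99 CPM in control to 18.5 CPM in metformin. Atp5s, a coupling factor, followed with 1.64 (1.14 to 2.35), and then Ndufs8, an iron-sulfur subunit of complex I, with 1.51 (1.38 to 1.65), from 84.5 to 127 CPM. The lowest were the assembly factors Ndufaf1, 0.798 (0.562 to 1.12), and Ndufaf5, 0.902 (0.629 to 1.28), and then Sdha, 1.02 (0.909 to 1.15).

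The fibroblast-like clusters differed in number between the libraries, with a cluster led by Cyp2f2 and Cpz largest in control (1445 cells, 447 in metformin). In each of the 6 clusters the summed level was higher in metformin, by a ratio from 1.08 to 1.30. The largest ratio was that of the cluster led by Col11a1 and Lrrc15 (230 and 331 cells), 1.30 (1.28 to 1.32), from 2.18% to 2.83% of counts, and its cells also differed in depth, with medians of 3226 and 5521 UMIs. The lowest, 1.08 (1.06 to 1.11), was that of the cluster led by Stc1 and Igfbp2, whose medians were 3304.5 and 3171 UMIs. Without the Col11a1 cluster the class ratio was 1.13. Cytosolic ribosomal protein genes moved with it, from 17.98% to 21.0% of fibroblast-like counts (ratio 1.17), and so did mitochondrially encoded subunits, from 1.43% to 2.20% (ratio 1.54). With both of these groups left out of the total, the ratio of the 94 genes was 1.24, and 64 members were higher and 0 lower, beside 30.3% and 17.4% of all genes. The summed level of the smooth muscle or pericyte markers in fibroblast-like cells was 320 CPM in control and 1299 CPM in metformin. The part of any of these in the difference was not tested.

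**Figure D3:**
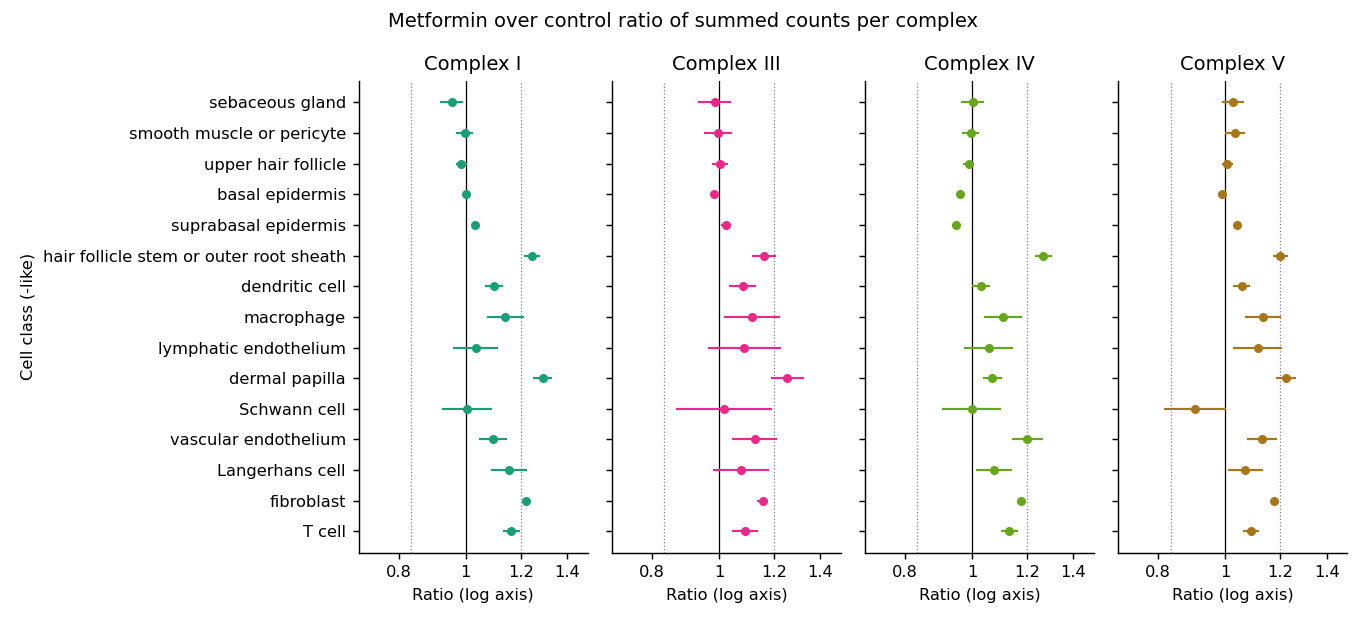
Metformin over control ratio of the summed counts of complexes I, III, IV and V (x axes, log scale) in 15 cell classes (y axis), with 95% counting intervals; the solid line marks 1 and dotted lines mark 1.2-fold in either direction. Fibroblast-like cells lie at 1.22, 1.16, 1.18 and 1.18 for complexes I, III, IV and V, and the 5 uppermost classes lie close to 1.

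Dermal papilla-like cells had a summed ratio of 1.2 (1.18 to 1.22), but different clusters held the class in the libraries. A cluster led by Slc26a7 and Notum held 256 control and 15 metformin cells, with a control level of 2.10%, and the cluster led by Hhip, Rspo3 and Wif1 held 85 control and 304 metformin cells. In the latter cluster alone the level went from 2.92% to 2.87%, a ratio of 0.984 (0.961 to 1.01). Over the class, 44 of 78 members were higher and 2 lower, beside 38.4% higher and 25.7% lower among all genes. In hair follicle stem or outer root sheath-like cells, 47 of 80 members were higher and 1 lower, beside 40.8% higher and 14.1% lower among all genes, whose median log2 ratio there was 0.18. In that class the cytosolic ribosomal share fell from 35.1% to 28.1%, and with ribosomal and mitochondrial genes left out of the total the ratio was 1.10, with 18 members higher and 3 lower, beside 26.98% and 22.6% of all genes under that setting. With each ratio divided by that of the median gene, 18 members were higher and 4 lower there, beside 25.1% and 24.7% of all genes. In dermal papilla-like cells that setting gave 32 higher and 3 lower, beside 31.7% and 31.7% of all genes.

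The immune classes and the endothelium lay between these and the epidermis. In macrophage-like cells (242 and 92 cells) the ratio was 1.13 (1.09 to 1.17), and 19 of 55 members were higher and 3 lower, beside 19.4% higher and 25.7% lower among all genes. Ndufa1, an accessory subunit of complex I, was at 220 and 366 CPM (109 and 70 UMIs), a ratio of 1.66 (1.21 to 2.27). Over 6 processing settings this ratio ranged from 1.21 to 1.71. Ndufa1 was also the highest in vascular endothelium-like cells, with 164 and 241 CPM and a ratio of 1.46 (1.09 to 1.99), which ranged from 1.44 to 1.49 over the settings. After Ndufa1, Atp5o (1.45, 1.02 to 2.04) and Ndufa3 (1.4, 1.04 to 1.88) had the highest ratios in macrophage-like cells, and Atp5g3 (0.784, 0.544 to 1.11), Ndufs5 (0.789, 0.514 to 1.18) and Cox8a (0.824, 0.692 to 0.978) the lowest. Vascular endothelium-like cells had a summed ratio of 1.13 (1.10 to 1.16), with 17 of 64 members higher and 1 lower, beside 17.3% and 18.5% of all genes. There complex IV had 1.2, and its subunits Cox5a (1.4, 1.11 to 1.78) and Cox6c (1.39, 1.2 to 1.61) followed Ndufa1. Cyc1 (0.832, 0.555 to 1.25), Cox7a2l (0.864, 0.660 to 1.13) and Ndufs3 (0.886, 0.614 to 1.29) were lowest, each with an interval that included 1.

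T cell-like cells had a ratio of 1.12 (1.11 to 1.14), and their 2 clusters had 1.12 and 1.13. Of 76 members, 20 were higher and 1 lower, beside 19.4% and 17.6% of all genes. Ndufv2 had the highest ratio, 1.55 (1.26 to 1.92), from 88.6 to 137 CPM, followed by Ndufb7 (1.43, 1.24 to 1.65) and Ndufa5 (1.41, 1.15 to 1.72), all of complex I. When cells of over 3000 genes and up to 20% mitochondrial counts were kept, the ratio was 1.03. Under that filter 5 of 81 members were higher, beside 16.6% of all genes. Cells were also clustered and named anew in that setting, and the part of the filter itself was not tested. The lowest was Ndufa4l2, at 51.9 CPM in control (85 UMIs, of which 16 in 1 cell) and 12.0 CPM in metformin (21 UMIs), a ratio of 0.231 (0.136 to 0.377), then Ndufs6 (0.840, 0.696 to 1.01) and Ndufs7 (0.912, 0.740 to 1.12). Markers of basal epidermis, the class with the most Ndufa4l2, were detected for 7 of 7 genes in T cell-like cells of both libraries. Their summed level was 1505 CPM in control and 654 CPM in metformin. With called doublets kept the Ndufa4l2 ratio was 0.982. The part of either in the Ndufa4l2 ratio was not tested. Among the other classes, 12 of 50 members were higher and 0 lower in Langerhans cell-like cells (beside 23.1% and 19.3% of all genes), and 11 of 75 were higher and 4 lower in dendritic cell-like cells (beside 15.6% and 21.7%). In lymphatic endothelium-like cells 5 of 36 were higher and 1 lower (beside 20.5% and 15.6%), and in Schwann cell-like cells 3 of 29 and 5 (beside 17.8% and 20.4%). With the wider cell filter these counts became 6 higher and 5 lower of 74 in Langerhans cell-like cells, beside 22.4% and 15.9% of all genes. They were 10 and 6 of 60 in Schwann cell-like cells (beside 22.4% and 28.8%) and 4 and 2 of 67 in dendritic cell-like cells (beside 11.1% and 20.1%). In lymphatic endothelium-like cells they were 11 and 3 of 49 (beside 23.0% and 16.3%).

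In basal epidermis-like cells (1396 and 2252 cells) the 5 complexes stayed within 5% of control, with ratios from 0.959 for complex IV to 1.02 for complex II. The complex IV sum includes Ndufa4l2, with 13320 of its 92414 control counts and 15336 of its 133954 metformin counts. Of 86 members 0 were higher and 1, Ndufa4l2, was lower past 1.2-fold, whereas 13% of all genes were higher and 9.42% lower. Ndufa6 (1.13, 1.07 to 1.2), Cox7a2l (1.13, 1.07 to 1.19), counted here among the assembly or coupling factors, and Ndufaf4 (1.13, 0.987 to 1.29) had the highest ratios. Ndufa4l2 fell from 1203 CPM to 917 CPM, a ratio of 0.762 (0.744 to 0.78), followed by Ndufs1 (0.848, 0.725 to 0.993) and Ndufaf2 (0.863, 0.760 to 0.979). The lower ratio of Ndufa4l2 was present in the 3 basal clusters, from 1247 to 979 CPM, 1204 to 864 CPM and, in cycling cells led by Ube2c and Cdk1, 1004 to 792 CPM.

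Suprabasal epidermis-like cells (969 and 779 cells) had lower levels of both genes of the Ndufa4 pair in metformin. Ndufa4l2 went from 1166 to 713 CPM, a ratio of 0.611 (0.591 to 0.633), and Ndufa4 was at 742 and 571 CPM, a ratio of 0.770 (0.740 to 0.801). By cluster, Ndufa4l2 went from 1326 to 758 CPM, from 1286 to 773 CPM and, in the granular cluster led by Lor, from 729 to 443 CPM. Next lowest was Sdha, 0.848 (0.714 to 1.01). The highest were Ndufaf4, 1.68 (1.41 to 1.99), Sdhd, 1.34 (1.13 to 1.59), and Cox7a2l, 1.30 (1.2 to 1.4). In total 5 of 84 members were higher and 2 lower, beside 13.3% and 16.2% of all genes. Complex IV had a ratio of 0.946, and complexes I, II, III and V had 1.03, 1.11, 1.02 and 1.04. The complex IV sum includes Ndufa4l2, with 10804 of its 75733 control counts and 4873 of its 52844 metformin counts. Of 12 complex IV members with enough counts, 8 had a ratio above 1, beside 51.0% of all genes. The median log2 ratio of the 12 was 0.03, that of all genes 0.005. In upper hair follicle-like cells, 5 of 81 members were higher and 3 lower (beside 15.3% and 16.5%), in sebaceous gland-like cells 3 of 71 and 5 (beside 11.7% and 22.2%), and in smooth muscle or pericyte-like cells 2 of 77 and 2 (beside 13.5% and 16%). With ribosomal and mitochondrial genes left out of the total, the counts were 7 higher and 2 lower in sebaceous gland-like cells, beside 15.4% and 19.0% of all genes. They were 6 and 1 in upper hair follicle-like cells (beside 24.0% and 11.3%) and 11 and 2 in suprabasal epidermis-like cells (beside 20.9% and 11.9%). The split between higher and lower thus depends on the denominator there, for the members and for all genes.

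**Figure D4:**
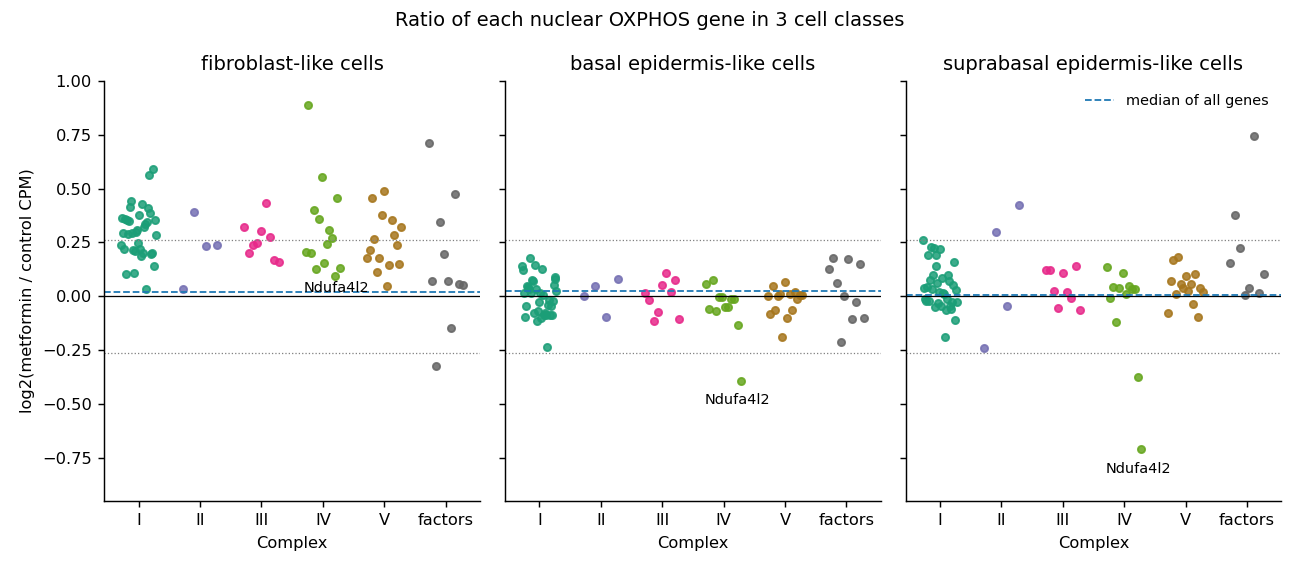
Log2 ratio of metformin over control CPM (y axis) for every member with at least 100 counts, by complex (x axis), in fibroblast-, basal and suprabasal epidermis-like cells; dotted lines mark 1.2-fold and the dashed line the median of all genes of the class. Fibroblast-like points lie around a median of 0.26, whereas in both epidermal classes Ndufa4l2 is the lowest point, at -0.39 and -0.71.

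Over the classes, members differed in how often they were higher in metformin. Ndufb11 had a ratio above 1 in 15 of 15 classes, and Cox5b, Cox6b1, Atp5j2 and Atp5l in 14 of 15. Ndufv3, an accessory subunit of complex I, was past 1.2-fold higher in 7 of 13 classes with enough counts and lower in 0. Among members going the other way, Ndufa4l2 was past 1.2-fold lower in 4 of 6 classes. Over 6 processing settings its ratio ranged from 0.715 to 0.781 in basal and from 0.611 to 0.647 in suprabasal epidermis-like cells. It ranged from 0.231 to 0.982 in T cell-like cells and from 0.475 to 0.851 in upper hair follicle-like cells, so it did not stay past 1.2-fold in these. Cox6a1 had a ratio above 1 in 5 of 13 classes and Ndufs4 in 4 of 10. These genes were picked for their values, and no share of all genes stands beside the counts, so they are not read as particular to these members. All these ratios share the same 2 libraries and are not independent of each other.

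Mitochondrially encoded subunits, the partners of these genes in complexes I, III, IV and V, followed them over classes only in part. They took 4.01% of counts in sebaceous gland-like cells of control and 4.16% in smooth muscle or pericyte-like cells, where the nuclear genes were also highest, and 1.23% in dermal papilla-like cells. Their ratio of metformin over control was above that of the nuclear genes in 11 of 15 classes. In dermal papilla-like cells it was 1.96, and 1.5 in the Hhip-led cluster, where the nuclear ratio was 0.984. In T cell-like cells it was 0.967 (0.954 to 0.981), whereas the nuclear genes had 1.12. Because cells above 8% mitochondrial counts were removed, the mitochondrial values are bounded by that filter.

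**Figure D5:**
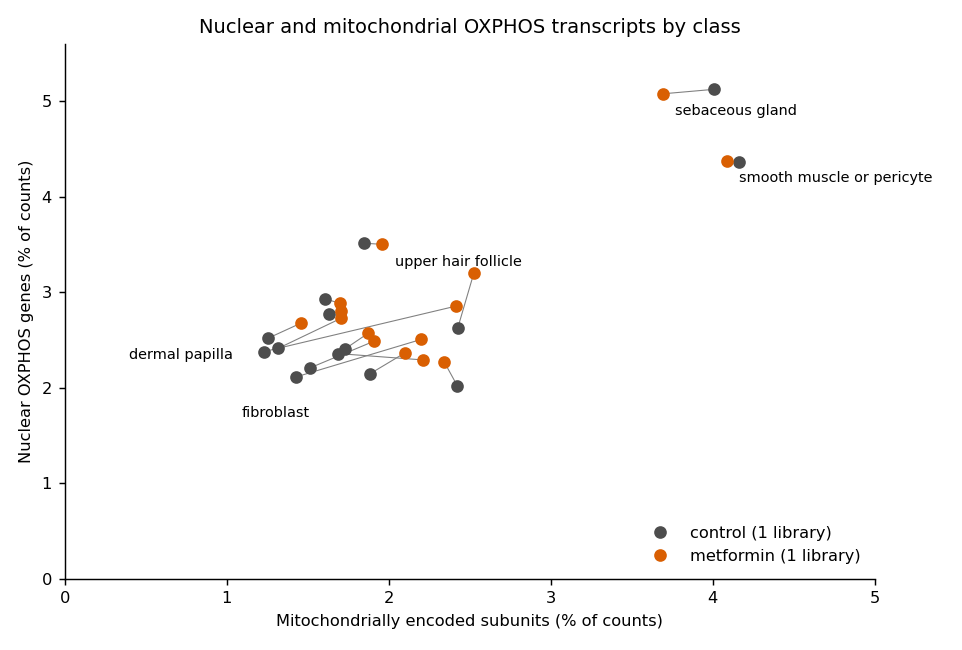
Percent of UMI counts from the 94 nuclear genes (y axis) against percent from the 13 mitochondrially encoded subunits (x axis) in 15 cell classes; grey lines join the control and metformin points of a class. Sebaceous gland- and smooth muscle or pericyte-like cells lie apart at the top right, and the dermal papilla-like line runs furthest to the right, from 1.23% to 2.41% on the x axis.

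Other genes of mitochondrial energy metabolism were read from lists. In fibroblast-like cells 43 of 76 mitochondrial ribosomal protein genes were higher past 1.2-fold and 1 lower, beside 23.5% and 21.8% of all genes, and their summed level went from 0.481% to 0.580%. Of the TCA cycle genes 5 of 15 were higher and 2 lower, and of the assembly genes of complexes III, IV and V 6 of 26 were higher and 1 lower, a share of higher genes near that of all genes. Of the transcription regulators of mitochondrial genes 0 of 10 were higher and 4 lower, with a summed ratio of 0.751. The glycolysis list was lower past 1.2-fold for 10 of 16 genes in basal epidermis-like cells (1 higher), beside 9.42% of all genes lower, with a summed ratio of 0.804 (0.795 to 0.813). In suprabasal epidermis-like cells 11 of 15 were lower (0 higher), beside 16.2% of all genes, with 0.783 (0.769 to 0.796). Its summed ratio was also below 1 in upper hair follicle-like cells, 0.857 (0.827 to 0.888), fibroblast-like cells, 0.897 (0.878 to 0.916), and smooth muscle or pericyte-like cells, 0.905 (0.855 to 0.958). It was above 1 in hair follicle stem or outer root sheath-like cells, 1.22 (1.16 to 1.29), and vascular endothelium-like cells, 1.17 (1.07 to 1.27). Of these genes Pgk1, which makes ATP in glycolysis, was at 282 and 192 CPM in basal epidermis-like cells and 226 and 139 CPM in suprabasal epidermis-like cells, and the glucose transporter Slc2a1 was at 79.6 and 53.0 CPM and at 33.6 and 24.4 CPM. Ndufa4l2 was lower in both epidermal classes, and whether the changes are linked was not tested.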

How the data were processed

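The authors made the deposited matrices with Cell Ranger 4.0.0 on the mouse genome GRCm38 (mm10), and the values are raw UMI counts per gene and barcode. For the control and metformin libraries, 12108 and 12092 barcodes with 71345558 and 92341365 counts were read. Cells were kept with 300 to 3000 genes, 800 or more UMIs and no more than 8% of counts from mitochondrial genes, and doublets called by Scrublet (2.43% and 3.26%) were removed. The upper gene limit removes deep cells: 12.1% of control and 19.4% of metformin barcodes were above it. Counts were scaled to 10000, log-transformed and clustered (scanpy 1.11.5, leidenalg 0.10.2, scikit-learn 1.9.0, 2000 variable genes without the members and mitochondrial genes, 30 components, resolution 1). Clusters were named from marker lists and may differ from the names given by the authors.

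Counts were summed per class and library. Shares have exact binomial (Clopper-Pearson), CPM exact Poisson and ratios exact conditional binomial intervals at 95% (scipy 1.17.1, numpy 2.4.6, Python 3.11.15). With 1 library per agent no test between agents was made, and genes were called past 1.2-fold with at least 100 counts. The steps were tested on simulated data with counting error only. Of genes left unchanged there, 9.92% passed 1.2-fold in either direction in a simulated fibroblast class and 23.1% in a simulated macrophage class. Coordinates came from the GENCODE annotation of GRCm38. Genes were named by rule: tissue isoform sets, catalytic subunits, the member with the widest range over classes in each complex (geometric mean of both libraries), and, in 6 classes, the 3 highest and 3 lowest ratios. Ndufb11, Cox5b, Cox6b1, Atp5j2, Atp5l, Ndufv3, Ndufa4l2, Cox6a1 and Ndufs4 (over classes), Pgk1 and Slc2a1 were named after their values were seen. The members, lists and markers were chosen with earlier results of these data known. Alternatives were a wider filter (no gene limit, 20% mitochondrial counts), doublets kept, resolution 2, members allowed in clustering, other denominators, fold and count minimum. Single clusters and named members were added after the data were seen.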

Additional observations from a re-analysis of the deposited data

Results flagged for a closer look

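For 4 complexes the ratio of metformin over control lay above 1 in some classes and below 1 in others, in counting terms, and these differences between classes were not tested. The lower value given is the lowest among classes whose counting interval lay below 1. Complex I had its highest ratio in dermal papilla-like cells, 1.29, and its lowest in sebaceous gland-like cells, 0.954. Complex III ranged from 1.26 in dermal papilla-like cells to 0.983 in basal epidermis-like cells. Complex IV ranged from 1.27 in hair follicle stem or outer root sheath-like cells to 0.946 in suprabasal epidermis-like cells. The latter sum includes Ndufa4l2, whose own ratio there was 0.611. Complex V had 1.22 in dermal papilla-like cells and 0.989 in basal epidermis-like cells, and its ratio of 0.904 in Schwann cell-like cells had an interval that included 1 (0.815 to 1.001). In dermal papilla-like cells the clusters that held the class differed between the libraries, and the Hhip-led cluster alone had a summed ratio of 0.984.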

How the results depend on the processing

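No paired analysis was possible because control and metformin are single libraries. Values here are ratios of metformin over control unless counts of members are named, and the cause of a change was not tested. Among results that answer a comparison, 100 values moved by less than their counting interval (counts of members: 1.5 times) under an alternative, 37 moved by more and 2 turned direction. For single complexes, levels and members the numbers were 958, 238 and 8.

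The summed ratio in suprabasal epidermis-like cells turned to 0.997 with doublets kept and 0.998 with members in the clustering, and was 1.06 without mitochondrial and ribosomal genes in the denominator. With the wider filter it was 1.03 in T cell-, 0.992 in basal epidermis- and 1.21 in fibroblast-like cells, and complex III turned to 0.991 in T cell- and complex V to 0.971 in Langerhans cell-like cells. In basal epidermis-like cells it was 0.975 at resolution 2 and 0.997 with the other denominator, where complex V was 1.002. In fibroblast-like cells it was 1.24 with the other denominator, 1.17 as a mean over cells and 1.13 without the Col11a1 cluster. The Hhip-led cluster alone gave 0.984 for all members, 0.903 for complex IV and 0.986 for complex V. Ndufa4 in macrophage-like cells turned to 0.983 with doublets kept and 0.990 with members in the clustering.

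In T cell-like cells 5 members were higher and 2 lower with the wider filter, beside 16.6% and 13.3% of all genes. There 0 were lower with doublets kept or members in the clustering (beside 20.3% and 17.8% of all genes), and 1 was higher past 1.5-fold (beside 3.53%). In basal epidermis-like cells 1 was higher and 2 lower with doublets kept, beside 14.1% and 9.67% of all genes. There 3 were lower at resolution 2 (beside 9.03% of all genes), 2 with members in the clustering (9.63%) and 0 past 1.5-fold (1.60%). In fibroblast-like cells 0 were lower with doublets kept or the other denominator, beside 21.7% and 17.4% of all genes. Past 1.5-fold 3 were higher and 0 lower, beside 6.42% and 7.96% of all genes. In macrophage-like cells 1 was higher and 0 lower past 1.5-fold, beside 2.69% and 10.2% of all genes. With a minimum of 20 counts 30 of 77 were higher and 5 lower, beside 26.4% and 35.1% of all genes. In suprabasal epidermis-like cells 11 were higher with the other denominator, beside 20.9% of all genes. Past 1.5-fold 1 was higher and 1 lower, beside 2.12% and 5.01% of all genes. In vascular endothelium-like cells 0 were lower with the wider filter, doublets kept, members in the clustering or the other denominator. The shares of all genes lower there were 19.9%, 20.8%, 18.1% and 16.3%. Past 1.5-fold 0 were higher and 0 lower (beside 2.99% and 4.68% of all genes), and 9 were lower with a minimum of 20 counts (beside 28.8%). In the classes of fewer cells, doublets kept gave 8 higher and 5 lower of 41 in Schwann cell-like cells, beside 25.3% and 31.1% of all genes. That setting gave 8 and 3 of 45 in lymphatic endothelium-like cells (beside 25.5% and 23.3%) and 3 and 9 of 71 in sebaceous gland-like cells (beside 11.5% and 23.4%). The wider filter gave 1 and 4 of 83 in sebaceous gland-like cells (beside 19.0% and 15.3%) and 2 and 0 of 81 in upper hair follicle-like cells (beside 13.3% and 14.4%). Classes of about 50 cells limit single members most, since their intervals often include 1.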

Other observations

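Melanocyte-like cells, too few for a comparison, had 2.46% of counts from the nuclear oxidative phosphorylation genes in control (51 cells) and 3.20% in metformin (42 cells). Cells with markers of the inner root sheath, hair shaft or matrix had 3.18% in the 18 control cells. Their complex V level in metformin was 1.16%, and their Ndufa4l2 level 2.21 CPM (15 UMIs).

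In T cell-like cells 17 of 53 mitochondrial ribosomal protein genes were higher past 1.2-fold in metformin and 1 lower, beside 19.4% and 17.6% of all genes, with a summed ratio of 1.13. The list was not recomputed with the wider cell filter, under which the ratio of the oxidative phosphorylation genes in this class was 1.03. The same list had 3 higher and 1 lower of 77 in basal epidermis-like cells, beside 13% and 9.42% of all genes there, with a summed ratio of 1.02.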
